A study of Saccharomyces cerevisiae with 227 samples.

Results

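The first 0.25 generations after a shift from air to N2 were followed in Saccharomyces cerevisiae cells that had already been treated with antimycin A, an inhibitor of the mitochondrial cytochrome bc1 complex, and could therefore not respire before oxygen was removed. The arrays were chosen by their labels: 15 arrays of N2 with antimycin A, 3 each at 0.04, at 0.08, at 0.13, at 0.19 and at 0.25 generations, and the 3 arrays of antimycin A in air at 3 generations, which served as the control, 18 of 227 arrays in all. Every cell was of the laboratory strain JM43 (MATα leu2 his4 trp1 ura3) and was grown in galactose medium with Tween 80 and ergosterol, which spare the cells the need for their own unsaturated fatty acids and sterol. By the study's methods 1 µM antimycin A was put into the medium before the 3 generations in air. For the N2 arrays the sample labels name the drug but give no concentration. After 3 generations of the drug in air the sparge gas was switched to oxygen-free N2 that also carried CO2, so the loss of oxygen and the change of CO2 cannot be told apart. The N2 series without antimycin A in galactose and the N2 series in glucose were used only to see where the antimycin-treated cells differed, each against its own air control. Times were matched in generations, so the same time need not be the same number of minutes in each series.

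Yeast senses oxygen largely through molecules whose synthesis consumes it. Heme, made by enzymes that need oxygen, activates Hap1, and Hap1 drives genes of respiration and ROX1, which encodes a repressor of the hypoxic genes, while falling sterol and unsaturated fatty acid call on Upc2 and Mga2. In respiring cells the loss of oxygen also stops respiratory ATP synthesis and NADH oxidation, and such cells typically lower the genes of ribosome assembly and raise those of stress defence and of the storage carbohydrates trehalose and glycogen. The carbonic anhydrase Nce103 supplies bicarbonate when CO2 is scarce, and fermenting cells without respiration dispose of surplus NADH by making glycerol.

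Each array compared Cy3-labelled cDNA of a sample with Cy5-labelled cDNA of a reference on long oligonucleotide probes for 5609 ORFs. The deposited value was taken as log2 of the sample divided by the reference, and since all antimycin arrays shared 1 reference their levels can be compared directly. Over the 18 arrays between 8 and 63 ORFs lacked a value and the array medians lay between −0.0082 and 0.0518, so that a joint change of the whole transcriptome would not show. Control array 2 stood apart, with a correlation across genes of 0.457 and 0.611 with the other control arrays against 0.775 between those, and so did array 2 at 0.13 generations, with 0.582 and 0.694 against 0.897. The median SD of a gene over 3 arrays was 0.257 in the control, 0.178 at 0.13 generations and 0.124 to 0.134 at the other times. By the study's methods each time course was sampled at alternating times from a pair of fermentor cultures and was itself repeated 3 times, so that neighbouring times came from different cultures. The labels do not say which arrays share a culture, and the part of the culture in a difference between neighbouring times was not tested. All changes are differences of log2 values between means of 3 arrays with the SE from limma, and a gene was called at 0.01 after Holm adjustment of its p-value over all genes of a time point. Against the control, the SE used 1 spread per gene shared by all 33 arrays of the model, although the control arrays varied more. These SEs and p-values can therefore be too small. With only the groups compared in the fit, which leaves fewer arrays for the spread, 73 of 302 called changes of named genes were called. The 5 times were compared with the same 3 control arrays and are not independent of each other.

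At 0.04 generations 66 of 5588 genes (1.18%) were called up and 23 (0.412%) called down. At 0.08 generations the order was turned, with 43 of 5581 up (0.77%) and 85 down (1.52%). Later 45 (0.805%) and 95 (1.7%) of 5587 were called at 0.13, 45 (0.806%) and 112 (2.01%) of 5582 at 0.19, and 58 (1.04%) and 127 (2.27%) of 5596 at 0.25 generations, up and down in that order. The counts in the gene lists below are to be read beside these shares of all genes. Together 317 genes were called at any of the 5 times, and the median change of all genes lay between 0.01 and 0.05. Within the N2 arrays, a comparison that leaves the control arrays aside, 100 of 5588 genes (1.79%) were higher and 218 (3.9%) lower at 0.25 than at 0.04 generations. The 89 calls at 0.04 generations fell to 52 without control array 2, 49 without array 1 and 55 without array 2 of that time, the 128 calls at 0.08 fell to 85 without array 1 or array 3 of that time, and the 318 calls between 0.25 and 0.04 fell to 208 without array 1 of 0.04.

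**Figure D1:**
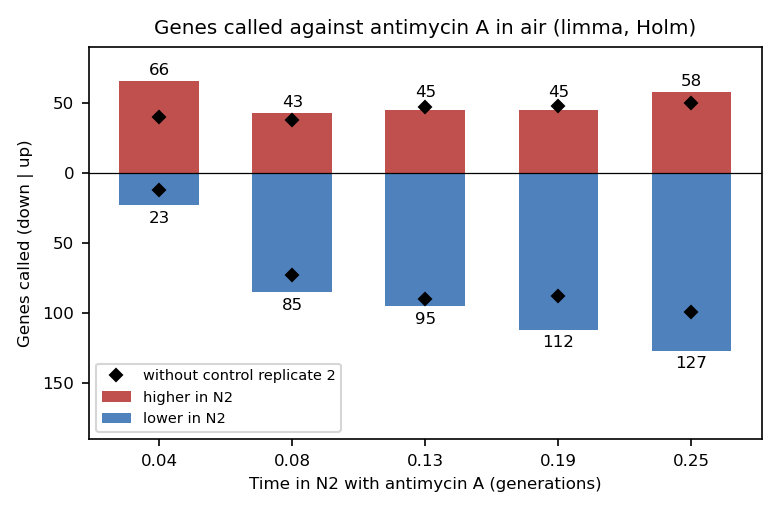
Number of genes called (limma, Holm-adjusted p of 0.01) at each early time of N2 with antimycin A against antimycin A in air, up-regulated genes above and down-regulated genes below the zero line, by generations after the switch. Diamonds give the counts without control array 2. With all arrays, up-regulated genes were most frequent at 0.04 generations (66) and down-regulated genes at 0.25 generations (127). Without control array 2 the up-regulated genes were 40 at 0.04 and 50 at 0.25 generations, so the early peak of up-regulated genes depended on that array. With quantile normalization these counts were 46 and 65, and with arrays centred on the median 59 and 49.

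NCE103 (YNL036W, chromosome XIV), the carbonic anhydrase gene, was among the genes with the largest falls at each of the 5 times. Its log2 level was 1.83, 0.97 and 2.37 in the control arrays and −1.09, −1.61 and −1.22 already at 0.04 generations. At 0.13 generations it was −3.55, −2.69 and −2.74. No N2 array overlapped the control arrays. The log2 change was −3.03 (SE 0.26, 8.15-fold lower, adjusted p = 3.11e-08) at 0.04 and −4.71 (26.3-fold lower, adjusted p = 8.06e-13) at 0.13 generations, and still −4.36 at 0.25. NCE103 fell without antimycin A too, by 1.54 at 0.04 and 3.29 at 0.25 generations, and the difference between the series was not called at any of the 5 times. Since the N2 carried added CO2, the part of CO2 in this fall cannot be told apart from that of oxygen.

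Further genes of unlike function changed at 0.04 generations. GLN1, which encodes glutamine synthetase, read −0.27, −1.15 and −0.22 in the control and 1.07, 1.22 and 1.68 at 0.04, 1.92, 2.44 and 2.55 at 0.08 and 0.28, 0.33 and 0.56 at 0.25 generations. Every N2 array lay above the control arrays, and the mean was highest at 0.08 generations. The change was 1.87 (SE 0.21, adjusted p = 8.82e-06), then 2.85 (7.21-fold higher, adjusted p = 8.13e-10), and at 0.25 generations 0.94, which was not called (adjusted p = 0.656). AQR1, which encodes a plasma membrane transporter of the multidrug resistance family, read −1.21, −0.03 and −0.60 in the control, 1.57, 1.34 and 2.05 at 0.04 and 0.23, −0.60 and −0.55 at 0.08 generations. Its rise of 2.27 (SE 0.23, 4.81-fold, adjusted p = 8.01e-07) was seen at 0.04 generations alone among the 5 times, and between 0.04 and 0.25 generations it fell by 2.58 (adjusted p = 4.49e-08). PHM7, a membrane protein gene, read −0.58, 0.21 and −0.41 in the control and −2.42, −2.27 and −2.23 at 0.04 generations, with no overlap. Its change was −2.05 (SE 0.22, adjusted p = 4.59e-06) at first and −1.64 at 0.25 generations, a call that was lost without control array 2 (−1.40, adjusted p = 0.0102).

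The uncharacterized ORF YOR338W moved in both directions within the 5 times. Its level was 0.34, 0.20 and 0.52 in the control, 2.15, 2.33 and 2.23 at 0.04, 0.15, 0.08 and 0.07 at 0.08 and −1.22, −0.97 and −1.12 at 0.19 generations. The arrays at 0.04 were the highest of all, and every later array lay below the control arrays. The change was 1.88 (SE 0.18, adjusted p = 2.16e-07), then −0.25, which was not called, −1.46 (adjusted p = 4.46e-05) at 0.19 and −1.65 (adjusted p = 3.55e-06) at 0.25 generations, and from 0.04 to 0.25 generations it fell by 3.54 (11.6-fold, adjusted p = 6.75e-14). Against antimycin A in air at 2 generations the calls at 0.13 and 0.19 generations were lost. The small ORF YER053C-A read 0.80, 1.48 and 0.83 in the control, −0.23, −1.05 and −1.26 at 0.04 and −3.31, −3.39 and −3.31 at 0.08 generations, a change of −4.38 at 0.08 (SE 0.51, adjusted p = 1.77e-05) and of −4.42 at 0.25 generations. All its N2 arrays lay below the control arrays.

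Of the oxygen-regulated genes, HEM13 and HEM14 of heme synthesis rose from 0.13 generations on. HEM13 (YDR044W), which encodes the oxygen-requiring coproporphyrinogen oxidase and is a repression target of Rox1, read −4.26, −3.34 and −3.81 in the control, −4.06, −3.78 and −3.79 at 0.04 and −3.00, −3.10 and −3.07 at 0.08 generations. It then read −1.28, −1.76 and −1.60 at 0.13 and −0.70, −0.37 and −0.39 at 0.25 generations. The arrays at 0.04 overlapped the control, and those from 0.08 generations on lay above it. The change at 0.08 was 0.75 and was not called (adjusted p = 0.4), that at 0.13 was 2.26 (SE 0.16, 4.79-fold, adjusted p = 3.31e-10), and that at 0.25 was 3.32 (9.96-fold, adjusted p = 2.62e-14). The 3 arrays at 3 generations of N2 with antimycin A were higher still, at 1.13, 1.24 and 1.22.

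COX5B, the hypoxic isoform of cytochrome c oxidase subunit V, was called from 0.19 generations on. It read −2.27, −2.59 and −2.39 in the control, −2.52, −2.27 and −2.31 at 0.08, −1.84, −1.59 and −1.70 at 0.13 and −0.07, −0.27 and −0.37 at 0.25 generations. The arrays at 0.08 overlapped the control and those from 0.13 generations on lay above it. The change of 0.71 at 0.13 was not called, whereas those of 1.76 at 0.19 and 2.18 (SE 0.15, 4.54-fold, adjusted p = 1.84e-10) at 0.25 generations were. AAC3, which encodes the hypoxic ADP/ATP carrier, rose by 1.52 at 0.13 and 1.89 (SE 0.20, adjusted p = 1.96e-06) at 0.25 generations, from −3.27, −2.67 and −3.99 to −1.36, −1.502 and −1.40. HEM14, the gene of protoporphyrinogen oxidase, another oxygen-requiring enzyme of heme synthesis, rose by 1.04 at 0.13 and 1.55 (adjusted p = 2.51e-09) at 0.25 generations. Of the 8 heme synthesis genes HEM13 and HEM14 were the 2 called from 0.13 generations on.

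ROX1 and HAP1 were called from 0.08 generations on. ROX1 (YPR065W) read 0.76, 0.23 and 1.25 in the control, −0.55, −0.90 and −0.58 at 0.04, −2.40, −2.29 and −2.21 at 0.08 and −1.84, −1.78 and −1.92 at 0.25 generations. All N2 arrays lay below the control arrays. The change of −1.43 at 0.04 was not called (adjusted p = 1), and that at 0.08 was −3.05 (SE 0.35, 8.29-fold lower, adjusted p = 1.12e-05). The call at 0.19 generations (−2.35, adjusted p = 0.00147) was lost without control array 1 or 4, or array 1 or 3 of that time, with values between −2.36 and −2.1, and with quantile normalization those at 0.13 and 0.19 generations were lost. HAP1, the gene of the heme-responsive activator, rose from −0.86, −0.29 and −0.37 in the control to 0.66, 0.58 and 0.58 at 0.08 generations, by 1.11 (SE 0.14, adjusted p = 7.69e-05), and was 1.39 higher at 0.25. MGA2, the gene of an activator of OLE1, was called at 0.19 generations alone (0.996), and not without control array 2 (0.90, adjusted p = 0.0166). Of 7 genes listed as repressed by Rox1, among them ROX1 itself, 0, 0, 2, 3 and 3 were up and 0, 1, 1, 1 and 1 down at the 5 times, and without control array 2 there were 2 up at 0.08 and 2 down at 0.13 generations. Of the 18 regulators of the heme and oxygen response listed, 1 or 2 were up and 1 was down at each time from 0.08 generations on. Over all genes tested 0.77% to 1.04% were up and 1.52% to 2.27% down at these times.

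Other genes known for anaerobic expression were not called by 0.25 generations. ANB1, the hypoxic form of a translation factor gene and a classic Rox1 target, read −1.40, −1.85 and −0.49 in the control and −3.54, −2.44 and −2.51 at 0.13 generations, a change of −1.58 that was not called (adjusted p = 0.0265), and CYC7, which encodes the hypoxic iso-2-cytochrome c, read −1.12, −1.73 and −1.37 and −2.67, −3.14 and −3.75 at 0.25 generations, likewise not called. DAN1, a cell wall mannoprotein gene, read −4.54, −4.16 and −4.45 in the control and −4.01, −3.63 and −3.23 at 0.25 generations, and AUS1, a sterol importer gene, −4.62, −3.83 and −4.51 and −4.00, −4.10 and −3.62. Neither change was called, and the groups of AUS1 overlapped. At 3 generations of N2 the arrays read 1.05, 1.03 and 1.16 for DAN1 and 1.23, 1.18 and 0.86 for AUS1. Of 12 genes of mannoproteins and sterol uptake only that of the regulator SUT1 was called, up by 0.89 at 0.08 generations, and this call was lost without any one of the 6 arrays compared (0.808 without control array 2, adjusted p = 0.128). None of 24 seripauperin genes was called, a family whose near-identical members can share signal on the probes.

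**Figure D2:**
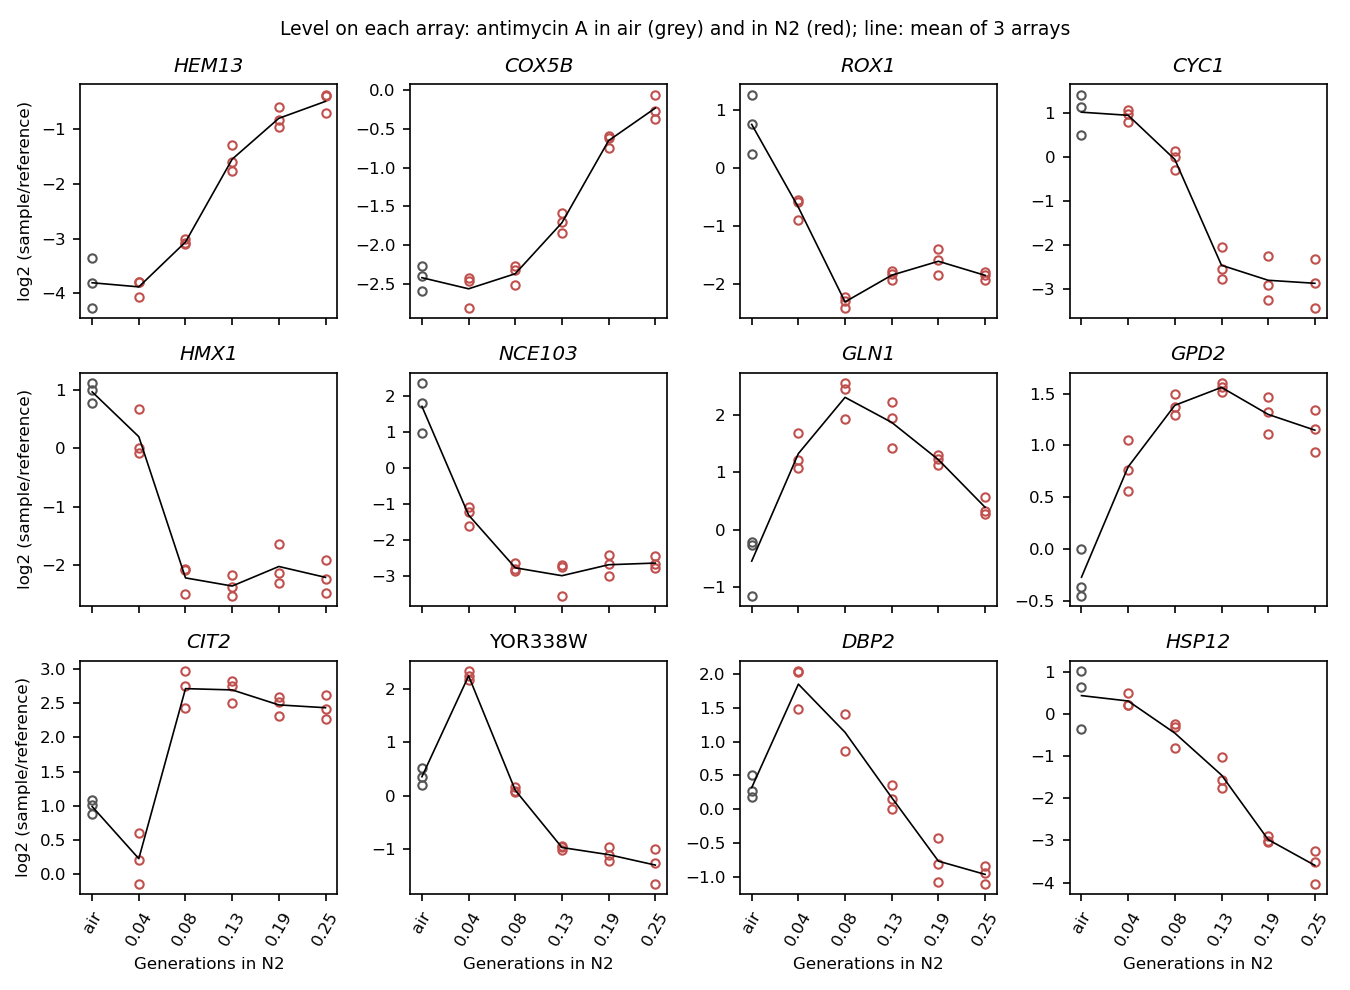
Log2 ratio of sample over reference of 12 genes on each array, for antimycin A in air at 3 generations and for the 5 early times of N2 with antimycin A. Points are arrays (control grey, N2 red) and the line joins the means of 3 arrays. NCE103 was lower on every N2 array than on any control array, HEM13 and COX5B rose late, and YOR338W was highest at 0.04 generations.

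Some genes of the respiratory chain were called down from 0.08 generations on, most of them only from 0.13. CYC1, the gene of iso-1-cytochrome c, read 1.15, 0.51 and 1.41 in the control, 1.08, 0.97 and 0.81 at 0.04 and −0.29, 0.01 and 0.13 at 0.08 generations. It read −2.78, −2.06 and −2.56 at 0.13 and −3.43, −2.32 and −2.87 at 0.25 generations, below every control array. The fall of 3.90 at 0.25 generations (14.9-fold, SE 0.52, adjusted p = 0.000305) was the largest called among the 37 genes of electron transport and ATP synthase. The call at 0.13 generations (−3.49, adjusted p = 0.00219) was lost without control array 1 or 4, or array 2 or 4 of that time, with values between −3.44 and −3.29, and that at 0.19 without array 3 of that time (−3.61, adjusted p = 0.0102). With quantile normalization none of the 3 calls of CYC1 held. Of the cytochrome bc1 complex, the target of antimycin A, CYT1 (cytochrome c1) read 0.79, 0.91 and 0.59 in the control and −0.56, −0.57 and −0.56 at 0.08 generations, without overlap. It fell by 1.32 (adjusted p = 0.000142) at 0.08 and by 2.22 (SE 0.17, adjusted p = 2.33e-09) at 0.13 generations. RIP1, which encodes the Rieske iron-sulfur protein of the same complex, read 0.86, 1.32 and 0.70 and −1.20, −1.22 and −1.31 at 0.19 generations, a fall of 2.20 (adjusted p = 7e-09). COX5A, the aerobic counterpart of COX5B, fell from 0.72, 0.61 and 0.83 to −1.38, −0.94 and −0.99 at 0.25 generations, by 1.82 (adjusted p = 3.84e-07).

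NDE1, the gene of an external NADH dehydrogenase of mitochondria, read 0.52, 1.30 and 0.44 in the control, −0.26, −0.47 and −0.77 at 0.08 and −2.56, −2.33 and −2.37 at 0.25 generations. Its change of −3.17 (SE 0.31, 9.02-fold lower, adjusted p = 6.58e-07) at 0.25 was called, whereas the call at 0.13 generations was lost without control array 2 (−1.90, adjusted p = 0.0316), array 3 or array 4 of that time. Of the 37 genes 0, 2, 11, 10 and 11 were down-regulated at the 5 times in order and none was up-regulated, with a median change of −0.08 at 0.04 and −0.82 at 0.25 generations beside 0.01 and 0.04 over all genes tested. The median level of these genes was 0.51, 0.21 and 0.43 on the control arrays and −0.30, −0.42 and −0.49 at 0.25 generations. None of the 8 genes of the mitochondrial genome and none of 56 mitochondrial ribosomal protein genes was called against the control, although without control array 2 a single one of the latter was down at 0.19 and at 0.25 generations.

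CIT2 and DLD3, which belong to the retrograde genes that respond to the state of the mitochondria, were called up from 0.08 generations on. CIT2, the gene of peroxisomal citrate synthase, read 0.87, 1.01 and 1.08 in the control, −0.14, 0.61 and 0.21 at 0.04, 2.97, 2.75 and 2.42 at 0.08 and 2.41, 2.26 and 2.62 at 0.25 generations. The arrays at 0.04 lay below the control and all later ones above it. The change was −0.76 at 0.04, which was not called (adjusted p = 0.741), and 1.72 (SE 0.17, 3.3-fold higher, adjusted p = 7.78e-07) at 0.08 generations. DLD3, which encodes a cytosolic D-lactate dehydrogenase and is another retrograde gene, read 0.74, 0.74 and 0.47 in the control, 0.01, 0.30 and 0.14 at 0.04 and 2.21, 2.06 and 1.87 at 0.08 generations, the same order of the groups. Its change was −0.49, not called, and then 1.39 (adjusted p = 1.33e-08). PYC1, which encodes the bicarbonate-using pyruvate carboxylase, fell from 1.42, 1.65 and 1.79 in the control to 0.12, −0.17 and −0.12 at 0.08 and −0.79, −0.43 and −0.43 at 0.25 generations, by 2.17 (SE 0.13, adjusted p = 9.71e-12). IDH2, which encodes a subunit of NAD-linked isocitrate dehydrogenase, rose at 0.25 generations by 1.25 (adjusted p = 3.92e-05). These were the called members among 17 genes of the citric acid cycle and retrograde signalling, with 2 or 3 up and 1 down at each time from 0.08 generations on.

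Sterol and fatty acid genes fell in part. Of 25 ergosterol genes 0, 5, 6, 7 and 8 were down-regulated at the 5 times and none up-regulated, and without control array 2 the counts were 0, 2, 4, 4 and 5. HMG1, which encodes the aerobic HMG-CoA reductase, read 0.90, 1.59 and 1.26 in the control, 1.19, 0.86 and 1.13 at 0.04 and −0.66, −0.57 and −0.59 at 0.08 generations, with a change of −1.86 at 0.08 and of −2.11 (adjusted p = 8.06e-05) at 0.25. Without control array 2 the calls of HMG1 at 0.08, 0.13 and 0.19 generations were lost (−1.69, −1.75 and −1.78, adjusted p = 0.0237, 0.0138 and 0.0104), and without control array 4 or array 1 of 0.08 so was the first of these. CYB5, the gene of cytochrome b5, which passes electrons to sterol and fatty acid desaturases, read 0.39, 0.03 and 0.62 in the control, 0.98, 0.33 and 0.18 at 0.04 and −1.44, −1.48 and −1.41 at 0.08 generations. It overlapped the control at 0.04 and lay below it from 0.08 on, with a change of −1.79 (adjusted p = 4.74e-05) and then −2.47 (SE 0.22, adjusted p = 5.55e-08). ERG5, the gene of the C-22 sterol desaturase, fell by 2.12 at 0.08 generations (adjusted p = 1.54e-05), from −0.14, 0.32 and 0.001 to −2.08, −2.04 and −2.06, and its later calls were lost without control array 2 (−1.49 to −1.57, adjusted p up to 0.048) and without several other arrays. ERG11 and ERG3, the genes of lanosterol demethylase and the C-5 desaturase, were not called, with −0.56 and 0.63 at 0.25 generations.

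Among 12 genes of fatty acid synthesis and desaturation, FAA1, the gene of a long-chain acyl-CoA synthetase, read 0.46, 1.01 and 0.61 in the control and −1.80, −1.79 and −1.79 at 0.08 generations, far apart, a change of −2.49 (SE 0.16, 5.6-fold lower, adjusted p = 4.85e-11). ACC1, which encodes the bicarbonate-using acetyl-CoA carboxylase, read 1.10, 1.51 and 1.501 and 0.18, 0.34 and 0.18, a change of −1.14 (adjusted p = 5.69e-05). The related synthetase gene FAA4 went the other way, up by 0.84 at 0.13 generations. OLE1, the gene of the oxygen-requiring delta-9 desaturase, was not called (−1.45 at 0.25 generations, adjusted p = 0.0756), in medium that held unsaturated fatty acid as Tween 80.

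HMX1, the gene of heme oxygenase, which breaks down heme with oxygen, fell between 0.04 and 0.08 generations. It read 1.12, 0.78 and 1.01 in the control, 0.67, −0.09 and 0.01 at 0.04, −2.51, −2.10 and −2.08 at 0.08 and −2.25, −1.92 and −2.48 at 0.25 generations. Every N2 array lay below the control. The change was −0.77 at 0.04, not called, and −3.20 (SE 0.30, 9.18-fold lower, adjusted p = 1.8e-07) at 0.08 generations. Of the 29 genes of the iron regulon, to which HMX1 belongs, 0, 2, 4, 5 and 4 were down-regulated at the 5 times. Over all genes tested the shares were 0.412%, 1.52%, 1.7%, 2.01% and 2.27%. ISU1, which encodes a scaffold for iron-sulfur cluster assembly, was already lower at 0.04 (−0.38, −0.38 and −0.41 against 0.33, 0.63 and 0.51 in the control, not called) and fell by 1.34 at 0.08 generations (adjusted p = 4.74e-06). FRE1, the gene of a surface ferric reductase, overlapped the control at 0.04 and read −0.52, −0.53 and −0.50 at 0.13 generations against 1.14, 1.88 and 1.29 in the control, a change of −1.96 (SE 0.21, adjusted p = 3.8e-06). FET4, the gene of the low-affinity iron transporter, was not called (−0.45 at 0.25 generations).

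Of 27 genes of oxidative stress defence 0, 4, 5, 6 and 5 were down-regulated at the 5 times and none up-regulated. Among all genes tested 0.412%, 1.52%, 1.7%, 2.01% and 2.27% were down-regulated. SOD2, the gene of mitochondrial superoxide dismutase, read 0.68, 0.04 and 0.70 in the control, −0.004, 0.37 and 0.12 at 0.04 and −2.01, −1.71 and −1.87 at 0.13 generations, a change of −2.34 (SE 0.20, adjusted p = 1.63e-08). GPX2, the gene of a glutathione peroxidase, changed by −1.58 at 0.08 and −2.23 (adjusted p = 1.82e-10) at 0.25 generations, from 0.88, 0.40 and 0.95 in the control to −1.42, −1.49 and −1.52. YHB1, the gene of a flavohemoglobin that detoxifies nitric oxide, fell late, with 0.94, 1.16 and 1.25 in the control, 0.78, 0.84 and 0.73 at 0.08 and −1.19, −0.94 and −0.69 at 0.25 generations. It was called at 0.19 (−1.62) and 0.25 generations (−2.05, adjusted p = 2.06e-09). CTT1, the gene of cytosolic catalase, was not called, with −1.37 at 0.08 generations.

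DUR12, DUR3 and PUT4, which serve the use of urea and proline, were called in different directions. DUR12, the gene of urea amidolyase, read 0.71, 0.77 and −0.33 in the control, 0.24, 0.42 and 0.68 at 0.04 and 1.63, 2.43 and 2.41 at 0.08 generations, and was back to 0.59, 0.36 and 0.53 at 0.25. It was up by 1.77 at 0.08 and 1.86 at 0.13 generations alone (SE 0.22, adjusted p = 7.88e-05 and 3.13e-05). The urea transporter gene DUR3 was up by 1.99 at 0.08 generations, a call that was lost without control array 1 or 4 (values from 1.67 to 1.85, adjusted p from 0.0108 to 0.0113). PUT4, the gene of the proline permease, fell from 0.85, 1.63 and 1.19 in the control to −0.58, −0.58 and −0.30 at 0.08 and −1.69, −1.64 and −1.86 at 0.25 generations. The change of −2.95 (SE 0.20, 7.74-fold lower, adjusted p = 1.31e-10) was the last in a series of falls called from 0.08 generations on.

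Among the other amino acid genes 46 targets of Gcn4 had 1, 2, 1, 0 and 1 members up and 1, 1, 2, 2 and 5 down at the 5 times, the last being 2 without control array 2. Over all genes tested 1.18%, 0.77%, 0.805%, 0.806% and 1.04% were up and 0.412%, 1.52%, 1.7%, 2.01% and 2.27% down. At 0.25 generations LEU1, the gene of isopropylmalate isomerase, read −0.38, −0.09 and −0.09 against 1.21, 1.14 and 1.36 in the control (−1.43, adjusted p = 8.9e-08). Of 24 genes of sulfate assimilation and methionine 0, 4, 4, 3 and 1 were down at the 5 times and 2 were up at 0.25 generations, none of which was called without control array 2, where 0, 2, 4, 2 and 0 were down. STR3, the gene of cystathionine beta-lyase, read 0.84, 1.23 and 0.71 in the control, −1.04, −1.23 and −1.13 at 0.13 and 0.43, 0.47 and 0.49 at 0.25 generations. It was lower on every array at 0.13 (−2.06, SE 0.17, adjusted p = 1.37e-08), and at 0.25 generations the change was −0.47 and not called. MET6, the gene of methionine synthase, had the same course, with −1.92 (adjusted p = 1.68e-07) at 0.08 and 0.03 at 0.25 generations. Of 20 thiamine and pyridoxine genes 5 were down at 0.19 and at 0.25 generations, and without control array 2 these were 0 and 4. Of them THI5, THI11, THI12 and THI13 held identical values on all 227 arrays and count as a single measurement (−1.06 at 0.25 generations, adjusted p = 7.7e-05), so that the 5 genes, of which the other is SNO1, stand for 2 measurements.

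Of 10 genes listed for glycerol synthesis 2 were up-regulated at each of the 5 times, GPD2 and GPP1, and 2, 2, 1, 1 and 1 were down-regulated. GPD2, which encodes the glycerol 3-phosphate dehydrogenase known for redox balance without oxygen, read −0.37, −0.45 and −0.001 in the control, 0.77, 0.56 and 1.06 at 0.04, 1.52, 1.56 and 1.60 at 0.13 and 0.94, 1.16 and 1.34 at 0.25 generations. All N2 arrays lay above the control arrays. The change was 1.07 (SE 0.13, adjusted p = 3.83e-05) at 0.04 and 1.83 (3.56-fold, adjusted p = 2.65e-10) at 0.13 generations. GPP1, which encodes the phosphatase of the next step, read −0.43, −0.95 and −0.13 in the control and 1.44, 1.25 and 1.43 at 0.08 generations, up by 1.88 (SE 0.14, adjusted p = 1e-09) and still by 1.14 at 0.25. GPD1, the osmotic stress isogene of GPD2, went down at first, from −0.83, −0.73 and −0.84 to −2.10, −1.79 and −1.61, a change of −1.03 that was lost without control array 2 (−0.997, adjusted p = 0.0124) or array 1 of that time. From 0.04 to 0.25 generations it rose by 1.65 (adjusted p = 6.38e-08). STL1, the gene of a glycerol importer, read −1.06, −0.44 and −1.71 in the control and −3.67, −3.46 and −2.87 at 0.08 generations, and both its calls, at 0.04 (−1.93) and 0.08 (−2.26), were lost without control array 2 (−1.62 and −1.94, adjusted p = 0.246 and 0.0189) and several other arrays.

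Of 26 genes of glycolysis and fermentation 1, 1, 2, 4 and 3 were up-regulated at the 5 times and none down-regulated, and without control array 2 the counts were 1, 1, 1, 4 and 1. TYE7, the gene of an activator of glycolytic genes, read 0.000, 0.02 and 0.39 in the control and 1.09, 1.19 and 1.28 at 0.04 generations, and was higher on every N2 array. The change was 1.05 (SE 0.13, adjusted p = 8.31e-05) at 0.04 and 1.25 (adjusted p = 2.28e-06) at 0.19 generations, and the weaker calls at 0.13 and 0.25 were lost without control array 2 (0.78 and 0.83, adjusted p = 0.0749 and 0.0281), control array 1 or arrays 3 or 4 of those times. GPM2, a homologue of the phosphoglycerate mutase gene, rose late, from −0.42, −1.48 and −0.80 in the control to 1.22, 1.14 and 1.05 at 0.25 generations (2.03, adjusted p = 1.43e-07). TDH3, an abundant glycolytic transcript, and ACT1, the actin gene, were not called at any of the 5 times, with 0.20 and −0.32 at 0.25 generations.

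Genes of ribosome assembly were highest at 0.04 generations and lower again by 0.25. The median level over 80 ribosome biogenesis genes was 0.24, −0.04 and 0.14 on the control arrays, 0.79, 0.73 and 0.67 at 0.04 and 0.63, 0.65 and 0.62 at 0.08 generations. It was −0.07, −0.17 and −0.18 at 0.25 generations. On antimycin A in air at 2 generations, an earlier time of the same culture scheme, it was 0.17, 0.19 and 0.20. Called up were 13, 6, 0, 0 and 0 of the 80 genes at the 5 times and called down 0, 0, 0, 1 and 1, with median changes of 0.62, 0.51, 0.15, −0.17 and −0.24. Without control array 2 the up-regulated genes at 0.04 and 0.08 were 11 and 3. Within the N2 arrays, 37 of the 80 genes were lower at 0.25 than at 0.04 generations and none was higher, where 3.9% of all genes tested were lower.

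DBP2, the gene of a DEAD-box RNA helicase, changed in both directions. It read 0.18, 0.27 and 0.50 in the control, 2.02, 1.48 and 2.04 at 0.04, 0.36, 0.001 and 0.15 at 0.13 and −0.85, −1.10 and −0.95 at 0.25 generations. The arrays at 0.04 were above the control and the arrays at 0.13 and 0.25, and those at 0.25 below the control. The change was 1.53 (SE 0.17, adjusted p = 1.2e-05) at first and −1.28 (adjusted p = 0.000324) at 0.25 generations, and from 0.04 to 0.25 it fell by 2.81 (7.04-fold, adjusted p = 1.84e-11). NSR1, the nucleolin gene, read 0.24, 0.81 and 0.41, then 1.86, 1.55 and 1.55 at 0.04 and −0.40, −0.65 and −0.63 at 0.25 generations, and fell by 2.21 between these times (adjusted p = 1.08e-08). Its rise of 1.17 at 0.04 against the control was lost without any array but control array 2 (1.04 to 1.22, adjusted p up to 0.1). AAH1, the gene of adenine deaminase, rose from 0.18, 0.04 and −0.10 to 1.46, 1.47 and 1.28 at 0.04 generations (1.36, adjusted p = 8.55e-06) and then fell by 2.28 to 0.25 generations (adjusted p = 1.11e-10). Of 10 genes of RNA polymerase I only RPA43 was called against the control, at 0.04 and 0.08 generations, and without control array 2 neither call held (0.82 and 0.74, adjusted p = 0.0193 and 0.0931). None of 138 cytosolic ribosomal protein genes, 1 of them tested at 0.25 generations alone, was called at any of the 5 times, with a median change between 0.10 and 0.22.

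Trehalose and glycogen genes were lowest at 0.04 and 0.08 generations. Their median level over 17 genes was −0.84, −0.35 and −0.58 on the control arrays, −1.56, −1.51 and −1.47 at 0.08 generations, and −0.23, −0.05 and −0.03 at 0.25 generations. Called down were 1 and 6 of the 17 genes at 0.04 and 0.08 generations and none at later times, called up was 1 at 0.19 and 0.25, and the 6 at 0.08 were 4 without control array 2. TSL1, which encodes a regulatory subunit of trehalose synthase, read −1.02, −0.55 and −0.95 in the control, −2.49, −2.50 and −2.14 at 0.08 and −0.72, −0.20 and −0.38 at 0.25 generations. It was lower on all arrays at 0.08 (−1.54, SE 0.20, adjusted p = 0.000146) and then rose by 1.49 from 0.04 to 0.25 generations (adjusted p = 0.000247), and neither call held with quantile normalization. GLC3, the gene of the glycogen branching enzyme, read −0.25, −0.08 and −0.57 and −1.94, −1.19 and −1.68 at 0.04 generations, a change of −1.30 (adjusted p = 3.63e-05), and was back at −0.12, −0.11 and −0.17 by 0.25. GSY1, a glycogen synthase gene, was above the control by 0.25 generations (−0.17, −0.20 and −0.15 against −1.49, −1.28 and −1.60, 1.28, adjusted p = 9.58e-05). From 0.04 to 0.25 generations 11 of the 17 genes rose and none fell, where 1.79% of all genes tested rose.

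The stress genes under Msn2 and Msn4 did not act as 1 group. Of 28 genes, 1 of them tested at 0.25 generations alone, 0 were up-regulated at any of the 5 times, and 2, 4, 3, 2 and 2 were down-regulated, with medians from −0.76 at 0.08 to 0.05 at 0.25 generations, and without control array 2 the counts were 0, 5, 3, 1 and 1. HSP12, the gene of a small membrane-associated heat shock protein, fell from 0.13 generations on. It read 1.02, −0.34 and 0.64 in the control, −0.81, −0.23 and −0.31 at 0.08, −1.77, −1.01 and −1.56 at 0.13 and −3.50, −3.24 and −4.02 at 0.25 generations. The arrays at 0.08 overlapped the control and those at 0.25 lay far below it, with a change of −4.03 (SE 0.31, 16.3-fold lower, adjusted p = 1.77e-09). The call at 0.13 generations (−1.88) was lost without control array 1 or 4, or array 2 or 4 of that time, with values between −1.83 and −1.59, or with quantile normalization. GAD1, the glutamate decarboxylase gene, was lowest at 0.08 generations (−2.86, −2.79 and −2.55 against −1.20, −0.91 and −1.34, −1.59, adjusted p = 9.47e-06) and was back at −1.26, −1.18 and −1.17 by 0.25. HSP26 was not called, with −3.08, −3.27 and −3.06 in the control and −3.11, −2.95 and −3.10 at 0.25 generations.

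**Figure D3:**
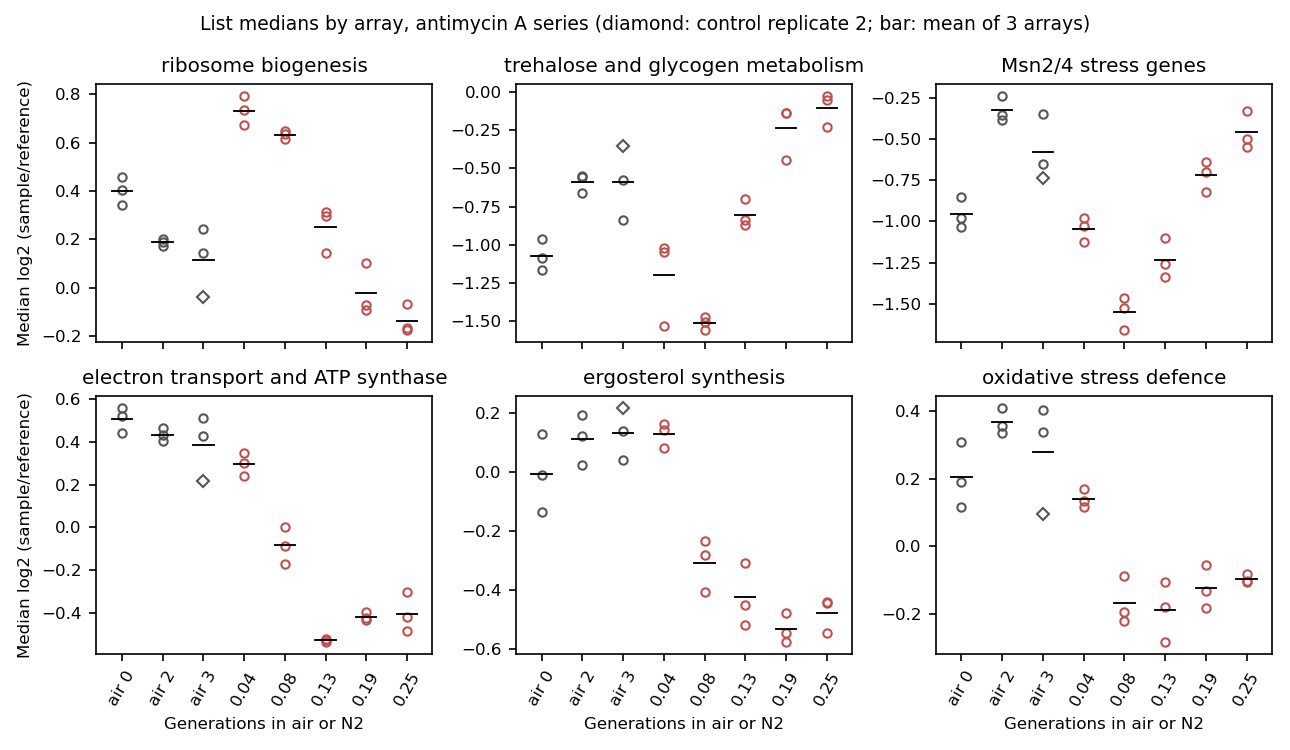
Median log2 ratio of sample over reference over the genes of each list on each array. Shown are air at 0, 2 and 3 generations of the antimycin A series and the 5 early times of N2 with antimycin A. By the study's methods the cells of 0 generations were taken before the drug was added. Points are arrays, the diamond is control array 2 and bars are means of 3 arrays. The ribosome biogenesis median (80 genes) was highest at 0.04 generations, with 0.79, 0.73 and 0.67, and the trehalose and glycogen median (17 genes) was lowest at 0.08, with −1.56, −1.51 and −1.47.

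Of the remaining lists, 38 G1/S genes, 9 histone genes, 8 galactose genes, 18 hexose transporter genes, 16 phosphate genes, 33 proteasome genes, 24 chaperone genes and 12 DUP and COS genes had no member called against the control at any of the 5 times. Counts of 0 here are by limma at a Holm-adjusted p of 0.01. Over all genes between 1425 and 1866 had an unadjusted p under 0.05 at a time point, so smaller changes in these lists are not shown to be absent. GAL1, the galactokinase gene, was at −0.25, the cyclin gene CLN2 at 0.29 and RNR1, the gene of the large subunit of ribonucleotide reductase, at 0.60 at 0.08 generations, none of them called.

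The series of N2 without antimycin A shows where the treated cells differed from cells that could respire until the switch. The change at each time was compared between the series as an interaction in limma, with each series against its own air control, so that the unlike references cancel. The change differed in 261 of 5588 genes (4.67%) at 0.04, 1010 of 5581 (18.1%) at 0.08, 872 of 5587 (15.6%) at 0.13, 362 of 5582 (6.49%) at 0.19 and 94 of 5596 (1.68%) at 0.25 generations. Without antimycin A 2.05%, 10.5%, 10.3%, 5.6% and 3.73% of all 5609 genes were up-regulated and 1.52%, 11.9%, 12.9%, 8.63% and 4.46% down-regulated at the 5 times. Ribosome biogenesis genes were among those that differed. Without antimycin A 7, 64, 68, 60 and 24 of the 80 genes were down-regulated at the 5 times and none was up-regulated, with medians of −0.25, −1.53, −1.71, −1.06 and −0.63. The difference was positive and called in 29, 67, 61, 30 and 0 of the 80 genes. SSF1, NOG2 and MRT4, which encode ribosome assembly factors, differed by 3.61, 3.56 and 3.56 at 0.08 generations (adjusted p = 6.54e-16, 4.12e-24 and 2.5e-15). For NOG2 the change was 0.45 with and −3.11 without antimycin A.

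The storage carbohydrate and stress genes differed in the other direction. Without antimycin A 14 of the 17 trehalose and glycogen genes were up-regulated at 0.08 generations, with a median of 1.98, whereas 6 were down-regulated with it, with a median of −0.83. The difference was negative and called in 9, 15, 12, 2 and 0 of the 17 genes. RGI1, a gene induced under respiratory growth, differed most, by −5.56 (SE 0.35, adjusted p = 4.97e-17) at 0.08 generations, where it changed by −0.96 with and by 4.60 without antimycin A. PGM2, the phosphoglucomutase gene, differed by −4.63. Of 28 Msn2/4 genes 19 were up-regulated without antimycin A at 0.08 generations, and the difference was negative and called in 19 of the 27 tested in both series. HSP12 differed by −4.89 at 0.25 generations (adjusted p = 1.12e-14), with −4.03 with and 0.86 without antimycin A.

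Some lists with no member called in the treated cells had members called without antimycin A, where 10.5% of all genes were up and 11.9% down at 0.08 generations. Of 18 hexose transporter genes 13 were up-regulated at 0.08 generations without antimycin A (median 1.82), and the difference was negative and called in 11. Of 8 galactose genes 6 were up-regulated (median 0.85) and 5 differed. Of 38 G1/S genes 20 were down-regulated (median −0.88) and 17 differed, among them RNR1 (−2.77 without and 0.60 with antimycin A). Of 138 cytosolic ribosomal protein genes 83 were down-regulated at 0.13 generations (median −0.79), and 48 of the 137 tested in both series differed. Sulfate assimilation and methionine genes had calls in both series. Of these 24 genes 17 were up-regulated at 0.13 generations (median 1.34), where 4 were down-regulated with antimycin A, and the difference was called in 19. STR3 changed by 2.86 without and −2.06 with antimycin A (difference −4.92, adjusted p = 3.2e-24).

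HEM13, CYT1, RIP1, GLN1, GPP1 and GPD2 were other genes that differed. HEM13 changed by 0.05 without and by 2.26 with antimycin A at 0.13 generations (difference 2.21, adjusted p = 9.56e-09). By 0.25 generations HEM13 had risen without antimycin A as well, by 2.08. CYT1 and RIP1 had fallen further with antimycin A, by differences of −1.35 and −1.70 at 0.13 generations, and of the 37 electron transport genes 6 differed, all lower with antimycin A, at 0.08 and at 0.13 generations and none at 0.19 or 0.25. GLN1 was not called without antimycin A at any early time and differed by 3.02 (adjusted p = 1.33e-05) at 0.08 generations. GPP1 differed by 3.34 and GPD2 by 1.31 at the same time. Differences in CIT2 were called at 0.04 generations alone (−1.59), and ROX1, HMX1, CYC1, AAC3 and HEM14 did not differ by the test at any of the 5 times.

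The N2 series in glucose shows the response of cells that ferment before the switch. The change differed from theirs in 20 of 5574 genes (0.359%) at 0.04, 49 of 5570 (0.88%) at 0.08, 95 of 5575 (1.7%) at 0.13, 83 of 5566 (1.49%) at 0.19 and 92 of 5584 (1.65%) at 0.25 generations. None of the 80 ribosome biogenesis genes and none of the 37 electron transport genes had a difference that was called at any of the 5 times. Differences that were not called reached −2.89 among the electron transport genes at 0.13 generations, so the series are not shown to be alike. In glucose the ribosome biogenesis median was 0.30, 0.55, 0.49, 0.11 and −0.17 at the 5 times. The median difference from it with antimycin A in galactose was 0.32, −0.01, −0.41, −0.31 and −0.09. At 0.08 generations 2 genes were up-regulated in glucose, beside 6 genes and a median of 0.51 with antimycin A in galactose. In glucose 1.13%, 2%, 3.18%, 3.29% and 3.02% of all genes were down-regulated at the 5 times and 0.125%, 0.268%, 0.607%, 0.733% and 1.7% up-regulated. Of the 37 electron transport genes 0, 1, 6, 22 and 26 were down-regulated there. Of 17 trehalose and glycogen genes 6, 11, 11, 9 and 5 were down-regulated in glucose, and the difference was positive and called in 8 at 0.13 generations. GSY1 differed by 4.16 (adjusted p = 4.55e-22) at that time.

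Single genes also set the treated cells apart from glucose. COX5B was lower in glucose at 0.13 generations (−1.53) and changed by 0.71, not called, with antimycin A in galactose, a difference of 2.23 (SE 0.18, adjusted p = 1.52e-12), and this difference was called at each of the 5 times. GLN1 was not called in glucose and differed by 2.88 (adjusted p = 1.54e-10) at 0.08 generations. PUT4 differed by −2.81 and LEU2 by −2.22 at 0.25 generations, each change being the more negative with antimycin A in galactose. The strain carries a mutant leu2 allele, so the LEU2 values are those of a mutated gene. HSP26 differed by 5.01, and read 2.86, 1.77 and 1.95 in the air control in glucose and −3.49, −3.50 and −2.92 at 0.04 generations there, levels against another reference, while its changes with antimycin A in galactose were not called at any of the 5 times.

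**Figure D4:**
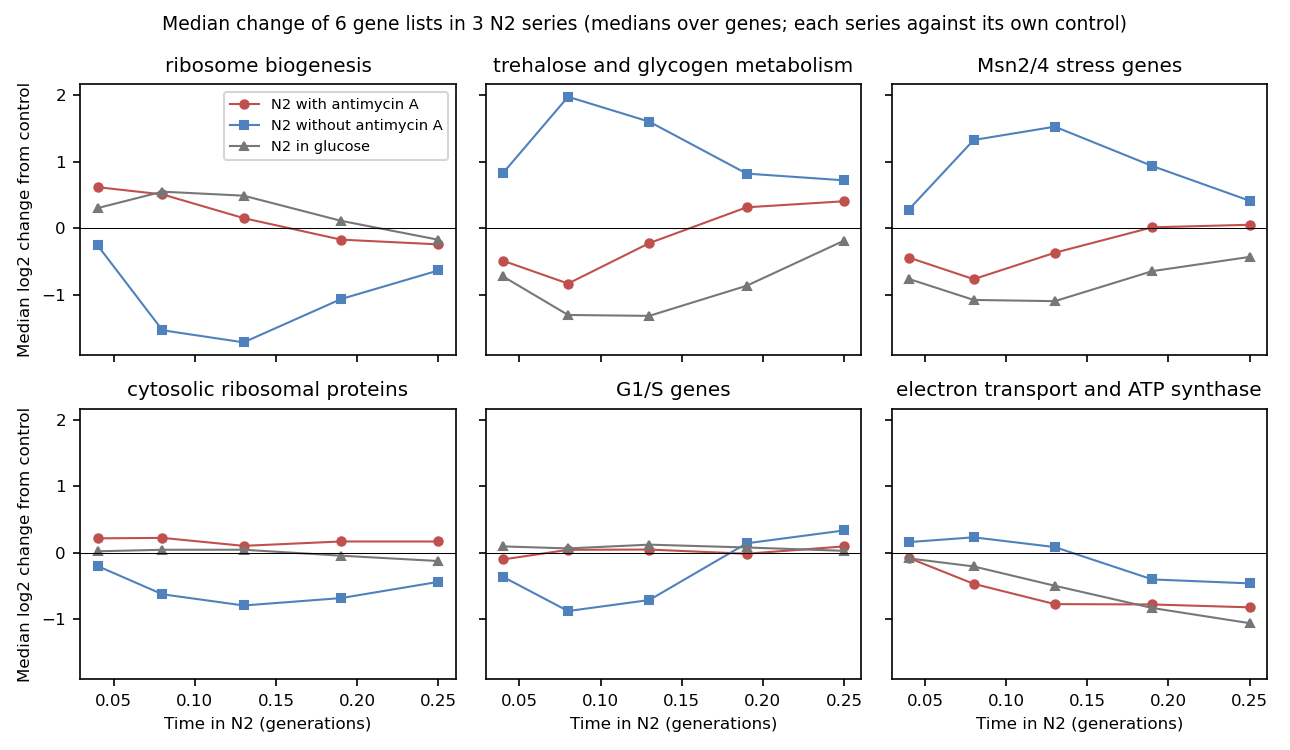
Median log2 change from the own air control over the genes of 6 lists at the 5 early times, for N2 with antimycin A in galactose, N2 without antimycin A in galactose and N2 in glucose. At 0.08 generations the ribosome biogenesis median was 0.51 with antimycin A, −1.53 without it and 0.55 in glucose, and the trehalose and glycogen median −0.83, 1.98 and −1.30.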

How the data were processed

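RNA of JM43 cells was measured on two-color arrays. The authors hybridized each Cy3-labelled sample with a Cy5-labelled reference, a pool of RNA of an anaerobic and a re-aerated culture for all antimycin A arrays, normalized the spots and deposited 1 value per ORF and array, taken here as log2 of sample divided by reference. The base and the direction are not stated in the labels. Genes of large and small variation gave a ratio of median linear levels of 1.026 for base 2, 1.199 for base e and 3.539 for base 10, and MSN2 was at −4.85 ± 0.62 in its mutant and 0.19 ± 0.17 in the wild type (SD, n = 3). Since each array is centred near 0, changes are relative to all genes. Of 5609 ORFs 5597 had a row in the RefSeq R64 table used for names.

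Samples were grouped by their labels. In limma 3.58.1 (R 4.3.3) each time point was given a mean of its own in 1 linear model of 33 arrays, those of antimycin A in air at 3 generations and of 10 times of N2 with antimycin A (22 residual degrees of freedom), with at least 2 values in each group compared. P-values of the moderated statistic were adjusted by Holm's method at 0.01, as in the study's methods. Differences from N2 alone (33 arrays) and N2 in glucose (32 arrays) were interaction terms. The fit was also run on simulated data, with equal spread and with a larger spread in the control, and the outcome is not reported here. The members and the 37 gene lists were chosen with earlier results of these data known, and lists were described by counts and medians without a test. Named genes were the markers, at each time the 4 largest rises and falls called with no overlap of arrays, the 5 highest and lowest between 0.25 and 0.04 generations, the 3 largest interactions in each direction at 0.08 and 0.25 generations, and up to 4 called genes of each list, 130 genes in all, some of which are not reported here. Alternatives concerned the adjustment, a 2-fold minimum, centring, quantile normalization, array weights, the samples fitted, the control, the replicate number as a block and the omission of each array. Precision is limited by the number of arrays. Growth data and promoter sequences were not analysed here.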

Additional observations from a re-analysis of the deposited data

Results flagged for a closer look

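The responses with and without antimycin A in galactose differed by a test of the difference itself in 261, 1010, 872, 362 and 94 genes at the 5 early times in order (limma, Holm). At 0.08 generations the largest positive differences in log2 change were those of SSF1 (3.61), NOG2 (3.56) and MRT4 (3.56), which encode ribosome assembly factors, and the largest negative ones those of RGI1 (−5.56), PGM2 (−4.63) and AIM17 (−4.42). At 0.25 generations they were those of VMA13 (3.33), which encodes a subunit of the vacuolar ATPase, YAR1 (2.80) and GYP5 (2.28), and of HSP12 (−4.89), CHA1 (−3.02), which encodes a serine and threonine deaminase, and MAL32 (−2.73), a maltase gene. VMA13 and GYP5 fell in both other series and were not called with antimycin A.

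The responses with antimycin A in galactose and without it in glucose differed in 20, 49, 95, 83 and 92 genes at the same times. At 0.08 generations the largest positive differences were those of the stress genes HSP26 (4.92), HSP30 (4.42) and SIP18 (4.21) and the largest negative ones those of YDL038C (−2.88), PRM7 (−2.61) and HMX1 (−2.41). YDL038C and PRM7 are adjacent ORFs with nearly the same values on each array and may not be separate measurements. At 0.25 generations they were those of EGO4 (5.45), HSP26 (5.01) and SIP18 (4.37), and of PUT4 (−2.81), AQR1 (−2.26) and LEU2 (−2.22). For HSP26, HSP30, SIP18 and EGO4 the air control in glucose stood high, and the changes with antimycin A were not called at 0.08 generations. EGO4 was called up with antimycin A at 0.25 generations (1.95, adjusted p = 0.000656), a call lost without control array 2 or array 2 of that time (1.68 to 1.85, adjusted p from 0.0138 to 0.0201).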

How the results depend on the processing

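Of the 302 changes of named genes that were called, 203 were called under each alternative applied gene by gene (array weights, quantile normalization, centring, the other controls, the replicate block and the omission of each array of the groups compared), and over these alternatives 3051 of 3484 values kept their call, 433 did not and 0 reversed. Of these 433, 343 arose on leaving out an array and 45 with quantile normalization. With only the groups compared in the fit 73 of the 302 were called, with the early arrays alone 233, with a 2-fold minimum 265 and with robust moderation 293, a count made after seeing the data. Counts of called genes, given here for the 5 early times in order, depended most on the adjustment and on the arrays that estimate the spread. With Benjamini-Hochberg at 0.01 they were 372, 477, 402, 488 and 657, with 1142 genes at any time, 994 between 0.25 and 0.04 generations, 2757 differing from N2 alone and 569 from glucose. With array weights they were 190, 326, 453, 315 and 343, with 752, 592, 1945 and 331 in the same order. With only the groups compared in the fit they were 1, 8, 9, 27 and 24, with 35, 70, 334 and 48. With the early arrays alone 42, 85 and 121 genes were called at 0.04, 0.08 and 0.25 generations, 200 at any time and 192 between 0.25 and 0.04. A 2-fold minimum left 40 at 0.04 generations, 205 at any time and 205 between 0.25 and 0.04. With the air arrays of 2 and 3 generations as control 136, 199 and 212 were called at 0.04, 0.08 and 0.13 generations. On leaving out 1 array of the groups compared the counts ranged from 49 to 76, 85 to 111, 94 to 137, 109 to 136 and 126 to 151 at the 5 times, from 263 to 338 at any time, from 208 to 244 between 0.25 and 0.04, from 1134 to 1302 for N2 alone and from 143 to 171 for glucose. Leaving out an array of another early time, also tried after seeing the data, gave counts of up to 98, 140, 139, 165 and 194, those other than the 139 without array 2 of 0.13 generations. The control of 2 generations in air alone, chosen after seeing the data, gave 83, 177, 197, 189 and 216. Correlations of deviations between same-numbered arrays ran from −0.398 to 0.48 (median 0.166, against −0.046 for other numbers), and 9 of 18 arrays were most like one of their own number. Since not every pair was correlated, the numbers were not taken to pair the samples, and with the replicate number as a block 99, 127, 144, 156 and 190 genes were called. The 3 control arrays, of which array 2 stood apart, limit all 5 comparisons at once, and the fermentor culture of each array is not given in the sources used here.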
